A study of Drosophila melanogaster with 12 samples.

Results

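The 8 genes described here are Xbp1, Atf6, Ire1, PEK, crc, Hsc70-3, ERp60 and Gp93 of the unfolded protein response of Drosophila melanogaster. They were chosen by symbol and matched to FlyBase identifiers, and all 8 were found among the 17737 gene identifiers counted in every library. Poly(A) RNA came from 4 groups of 3 libraries. S2 cells, an embryo-derived culture line resembling blood cells, were either untreated or given double-stranded RNA (dsRNA) targeting Atx2, the gene of the RNA-binding protein Ataxin-2. Whole brains dissected from 3rd instar larvae either had no treatment named or carried elav gal4 driving an Atx2 short hairpin RNA (shRNA). The driver elav is active in neurons, while the lysate held every cell of the brain. The genotype of the control brains is not named, so the driver and hairpin transgenes and the lowering of Atx2 cannot be told apart. No dsRNA is named for the S2 controls either, so exposure to dsRNA and the lowering of Atx2 cannot be told apart. No label says whether replicates were separate cultures or animals. The p-values therefore describe variation among these libraries, which may be technical.

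The unfolded protein response links the folding load of the endoplasmic reticulum (ER) to gene expression. Ire1, an ER membrane kinase and ribonuclease, excises an intron from Xbp1 mRNA so that the Xbp1 transcription factor can be made; PEK, the fly PERK kinase, phosphorylates eIF2alpha, which favours translation of the fly ATF4, crc; and Atf6, as described in mammals, is carried to the Golgi and cleaved to free a transcription factor. Hsc70-3 (BiP), Gp93 (GRP94) and ERp60, a protein disulfide isomerase, act in the ER lumen and are typical targets of the response. Gene counts cannot separate spliced from unspliced Xbp1, and they do not measure phosphorylation, translation of crc or cleavage of Atf6.

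Libraries held 14944637 to 29020252 counts in S2 cells and 26442727 to 31579528 in brains. Atx2 itself was at 242, 218 and 226 CPM (counts per 1e6 counts) in the S2 control libraries and at 149, 55.3 and 166 CPM with dsRNA. The groups did not overlap, but the log2 fold change of -0.89 ± 0.35 (SE, n = 3 per group) missed the threshold of 0.05 (adjusted p = 0.0613). In brains Atx2 fell from 193 ± 5.08 to 98.1 ± 5.86 CPM (SD, n = 3 per group; adjusted p = 0.00271). Marker genes of other tissues stood out in single brain libraries. The summed level of 6 salivary gland markers was 1816 CPM in brain control library 3 and 0.879 to 26.9 CPM in the other brains. The summed level of 6 gut markers was 2003 CPM in shRNA library 1 and 0.654 to 2.73 CPM in the other brains, although Jon99Ciii and Amy-p stayed under 1 CPM in it. The 6 fat body markers summed to 3067 CPM in shRNA library 1, 1348 CPM in shRNA library 2 and 26.1 to 480 CPM in the other brains, and the 5 muscle markers to 975 CPM in shRNA library 2 and 53.0 to 346 CPM in the others. Neuronal markers summed to 1519 to 2033 CPM in brains and 35.1 to 120 CPM in S2 cells. In S2 cells the 5 hemocyte markers summed to 1311 to 2161 CPM in controls and 221 to 297 CPM with dsRNA; Hml, srp, eater and Pxn were lower in all 3 dsRNA libraries, and NimC1 was under 1 CPM in every S2 library. These bulk values cannot tell fewer cells of a type from less RNA per cell.

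Levels were compared between genes as CPM per kilobase of exon, with all 12 libraries on one trimmed mean of M-values (TMM) scale. In control S2 cells the lumenal proteins and Xbp1 were far above the sensors. ERp60 was at 1180 ± 84 CPM per kilobase (SD, n = 3 for each level), Xbp1 at 873 ± 31.7, Hsc70-3 at 719.5 ± 199 and Gp93 at 549 ± 96.2. These 4 genes lay at the 98.6th to 99.1st percentile of 11085 genes. The ranges of Hsc70-3 and its neighbours Xbp1 and Gp93 overlapped, so its place between them is not resolved beyond the spread. Then came crc at 143 ± 4.25, Ire1 at 72.2 ± 14.7, PEK at 54.7 ± 4.12 and Atf6 at 27.8 ± 0.727 CPM per kilobase. Ire1 and PEK overlapped, at 57.5 to 86.9 and 52.1 to 59.5 CPM per kilobase.

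The level of crc is uncertain. Of its exon bases, 73.5% are shared with CG46314 on the same strand, a gene with 0 counts in every library, and how reads in shared exons were treated is not given in the sources used here. Ire1 shares 12.3% of its exon bases with MICU3, Gp93 shares 3.56% with CG4951 and ERp60 shares 1.99% with cuff, in each case on the opposite strand. The strand setting of the counting is not given either, so reads there cannot be assigned with certainty. Those neighbours had at most 893, 1011 and 134 counts in a library. Annotated transposon copies cover parts of the Atf6 exons, the longest of them 19.8%, so reads that align in several places may be missing from its count.

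**Figure D1:**
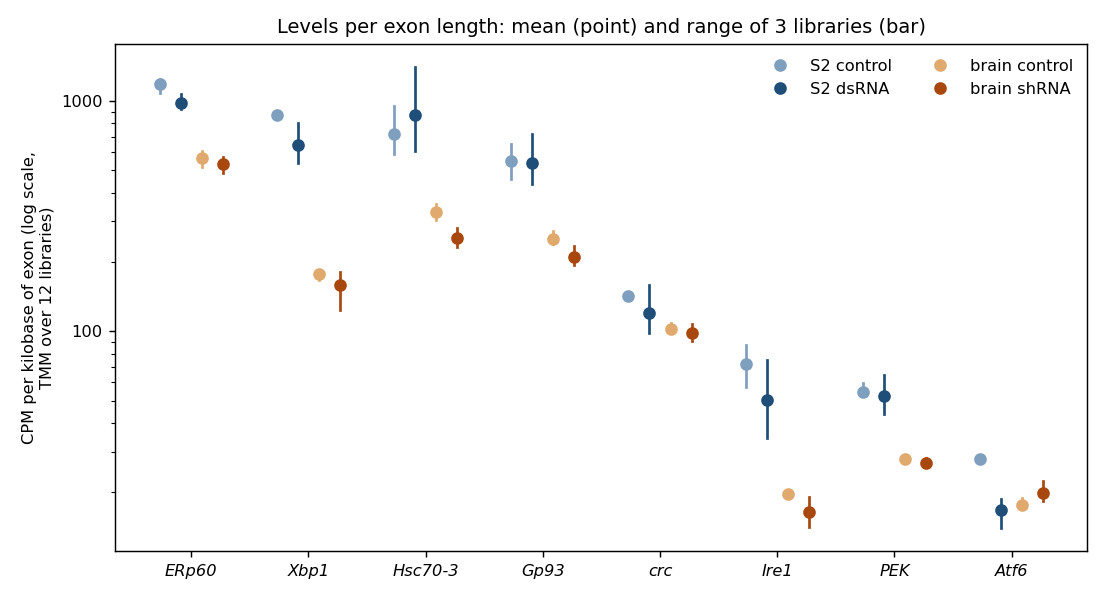
Levels of the 8 genes in CPM per kilobase of exon on a log axis, with the mean of 3 libraries as a point and their range as a bar, for S2 control, S2 dsRNA, brain control and brain shRNA. ERp60 was the highest in each group by mean, and Atf6 was the lowest in S2 cells.

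In control brains all 8 genes were below their level in control S2 cells, and all 8 passed the test in the fit of 12 libraries. Of 11176 genes tested there, 76.4% were called, 35.9% lower and 40.6% higher in brain. The control groups did not overlap for any of the 8, against 81.3% of all genes, 38.8% lower and 42.5% higher. Xbp1 showed the largest difference among the members. It stood at 1806 to 1941 CPM in control S2 cells and 359 to 396 CPM in control brains on the common scale, a log2 difference of -2.30 ± 0.17 (SE, n = 3 per group, adjusted p = 1.96e-07). Ire1, the enzyme that processes its mRNA, followed with -1.87 ± 0.26 (adjusted p = 4.73e-05). For the lumenal proteins the difference was similar in size, at -1.12 ± 0.30 for Hsc70-3, -1.12 ± 0.19 for Gp93 and -1.07 ± 0.10 for ERp60. PEK differed by -0.97 ± 0.13, Atf6 by -0.66 ± 0.12 and crc by -0.48 ± 0.15 (adjusted p = 0.0146). The median over all genes was 0.11 on this scale, and scaling by library totals moved it by 0.38; Atf6 was then at -0.28 (adjusted p = 0.0524) and crc at -0.10 (adjusted p = 0.535), and neither passed. With relative log expression (RLE) scaling, which moved the median by 0.12, crc was at -0.36 (adjusted p = 0.0519), and without brain control library 3 and shRNA library 1 it was at -0.45 (adjusted p = 0.0541).

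By mean level, Xbp1, Ire1, PEK, crc, Gp93 and ERp60 had the same order over the 4 groups, from S2 controls through dsRNA S2 cells and control brains to shRNA brains, and Atf6 and Hsc70-3 did not. Xbp1 stood at 843 to 906 CPM per kilobase in S2 controls, 537 to 801 with dsRNA and 168 to 185 in control brains, without overlap, and the brain groups overlapped each other. For Atf6 the S2 controls were highest, at 27.1 to 28.6 CPM per kilobase. The other 3 groups overlapped their neighbours in the order, with shRNA brains at 18.3 to 22.5, control brains at 16.9 to 18.9 and dsRNA S2 cells at 14.0 to 18.7. For Ire1, PEK, Hsc70-3, Gp93 and ERp60, every S2 library was above every brain library. In crc the dsRNA libraries, at 98.6 to 158 CPM per kilobase, overlapped all the other groups.

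In S2 cells, dsRNA against Atx2 was accompanied by lower Atf6, Xbp1 and ERp60 and by no change past the threshold in the other 5 genes, with TMM scaling within S2 libraries. Thus 3 of 8 members were called, all lower, where 55% of the 9058 genes tested were called, 26.6% lower and 28.5% higher. The same 3 genes had groups that did not overlap, against 63.8% of all genes, 30.5% lower and 33.3% higher. The median log2 fold change was -0.27 for the members and 0.04 for all genes tested.

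**Figure D2:**
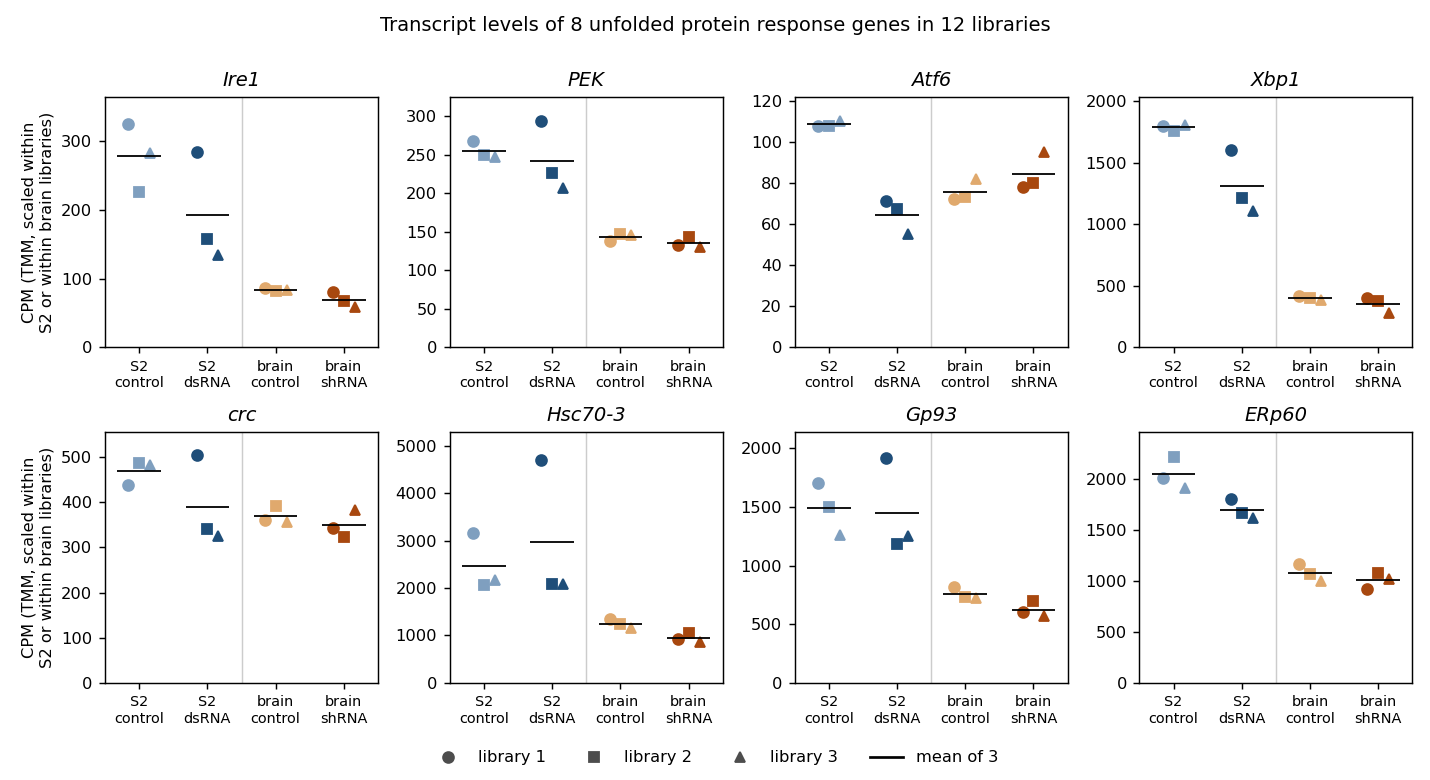
CPM of each gene in each of the 12 libraries, with TMM scaling within S2 or within brain libraries; marker shape gives the library number and the line the mean of 3. Atf6 separates control from dsRNA in S2 cells, at 108 to 110.5 against 55.2 to 71.2 CPM, and dsRNA library 1 is the highest dsRNA library for every gene.

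Among the sensors, Atf6 was the one past the threshold in S2 cells. It measured 108, 108 and 110.5 CPM in the control libraries and 71.2, 67.6 and 55.2 CPM in the dsRNA libraries. Every dsRNA library was below every control. The log2 fold change was -0.75 ± 0.12 (SE, n = 3 per group, adjusted p = 0.00125), from 109 ± 1.43 to 64.7 ± 8.39 CPM (SD). It passed in 15 of 16 alternatives, the exception being scaling by library totals (-0.26, adjusted p = 0.0850).

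Ire1 measured 324, 226.5 and 283 CPM in control S2 cells and 284, 158 and 134 CPM with dsRNA. The groups overlapped through dsRNA library 1, and the log2 fold change of -0.53 ± 0.28 did not pass (adjusted p = 0.138). Without that library it was -0.93 ± 0.16 and passed (adjusted p = 0.00200). PEK measured 268, 250 and 247 CPM in controls and 293, 226 and 206 CPM with dsRNA. Library 1 of the dsRNA group was above all controls and the other 2 below them. The log2 fold change was -0.08 ± 0.14 (adjusted p = 0.680).

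Of the transcription factors downstream, Xbp1 was at 1797, 1762 and 1810 CPM in control S2 cells and at 1602, 1216 and 1110 CPM with dsRNA. The controls lay close together and all dsRNA libraries were lower. With TMM it fell by 0.45 ± 0.14 on the log2 scale (SE, n = 3 per group, adjusted p = 0.0273), while scaling by library totals put it at 0.04 (adjusted p = 0.834). It passed in 8 of 16 alternatives. Leaving out control library 1 or 3, or dsRNA library 2 or 3, gave -0.47, -0.47, -0.41 and -0.36 (adjusted p = 0.0534, 0.0679, 0.0855 and 0.0707). The fly ATF4 transcript, crc, was at 437, 486.5 and 483 CPM in controls and at 505.5, 340 and 325 CPM with dsRNA. Again library 1 of the dsRNA group was above the controls and the other 2 were below them. Its log2 fold change was -0.26 ± 0.18 (adjusted p = 0.234) and, without dsRNA library 1, -0.50 ± 0.10 (adjusted p = 0.00319).

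The lumenal chaperones gave no common direction in S2 cells. Hsc70-3 was at 3151, 2068 and 2161 CPM in controls and at 4707, 2082 and 2090 CPM with dsRNA. The highest value of each group came from its library 1, and the other 4 libraries lay within 2068 to 2161 CPM. The log2 fold change of 0.27 ± 0.33 did not pass (adjusted p = 0.520), and without dsRNA library 1 it was -0.24 ± 0.18 (adjusted p = 0.269). Gp93 was at 1706, 1497 and 1262 CPM in controls and at 1914, 1183 and 1249 CPM with dsRNA. These groups overlapped across most of their range, with a log2 fold change of -0.04 ± 0.20 (adjusted p = 0.884).

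ERp60 was at 2007, 2209 and 1911 CPM in control S2 cells and at 1801, 1661 and 1609 CPM with dsRNA. All dsRNA libraries were below all controls, by a gap no wider than the SD of the controls. With TMM it fell by 0.27 ± 0.10 on the log2 scale (SE, n = 3 per group, adjusted p = 0.0462); by library totals it stood at 0.21 (adjusted p = 0.0938). It passed in 5 of 16 alternatives. Without any one of control libraries 1, 2 and 3 or dsRNA libraries 2 and 3 the adjusted p was between 0.0608 and 0.121.

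Scaling weighs on all of these S2 values. The TMM factors were 0.836 to 0.860 for the control libraries and 1.18 to 1.20 for the dsRNA libraries, so the choice between TMM and library totals moved the median log2 fold change of all genes by 0.49. Upper quartile scaling moved it by 0.18 and RLE by -0.02. Over all genes, 51.7% of calls were higher with dsRNA under TMM, 64.6% under upper quartile scaling and 78.7% under library totals. Relative to library totals, the 8 genes together held 0.693 to 0.819% of the counts in control S2 cells and 0.796 to 1.31% with dsRNA.

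The members moved with the scaling as follows. Under RLE the same 3 genes were called lower, where 27.2% of all genes were lower and 27.8% higher. Under upper quartile scaling Atf6 remained the only called member, at -0.57 ± 0.12 (adjusted p = 0.00392), with Xbp1 at -0.27 (adjusted p = 0.124) and ERp60 at -0.09 (adjusted p = 0.452). With that scaling 20.6% of all genes were called lower and 37.6% higher. Under library totals PEK alone was called, and it was higher with dsRNA (0.41 ± 0.14, adjusted p = 0.0317). Over all genes 54.2% were called higher and 14.6% lower with library totals, and their median of 0.53 was above the value of PEK. Hsc70-3 was then at 0.75 (adjusted p = 0.0674), Gp93 at 0.45 (adjusted p = 0.0734), crc at 0.22 (adjusted p = 0.284) and Ire1 at -0.05 (adjusted p = 0.892). With library totals and without dsRNA library 1, Atf6 (-0.33, adjusted p = 0.0323) and Ire1 (-0.43, adjusted p = 0.0374) were lower. PEK was higher there (0.26, adjusted p = 0.0464), where 56.2% of all genes were higher and 16.4% lower, with a median of 0.54.

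**Figure D3:**
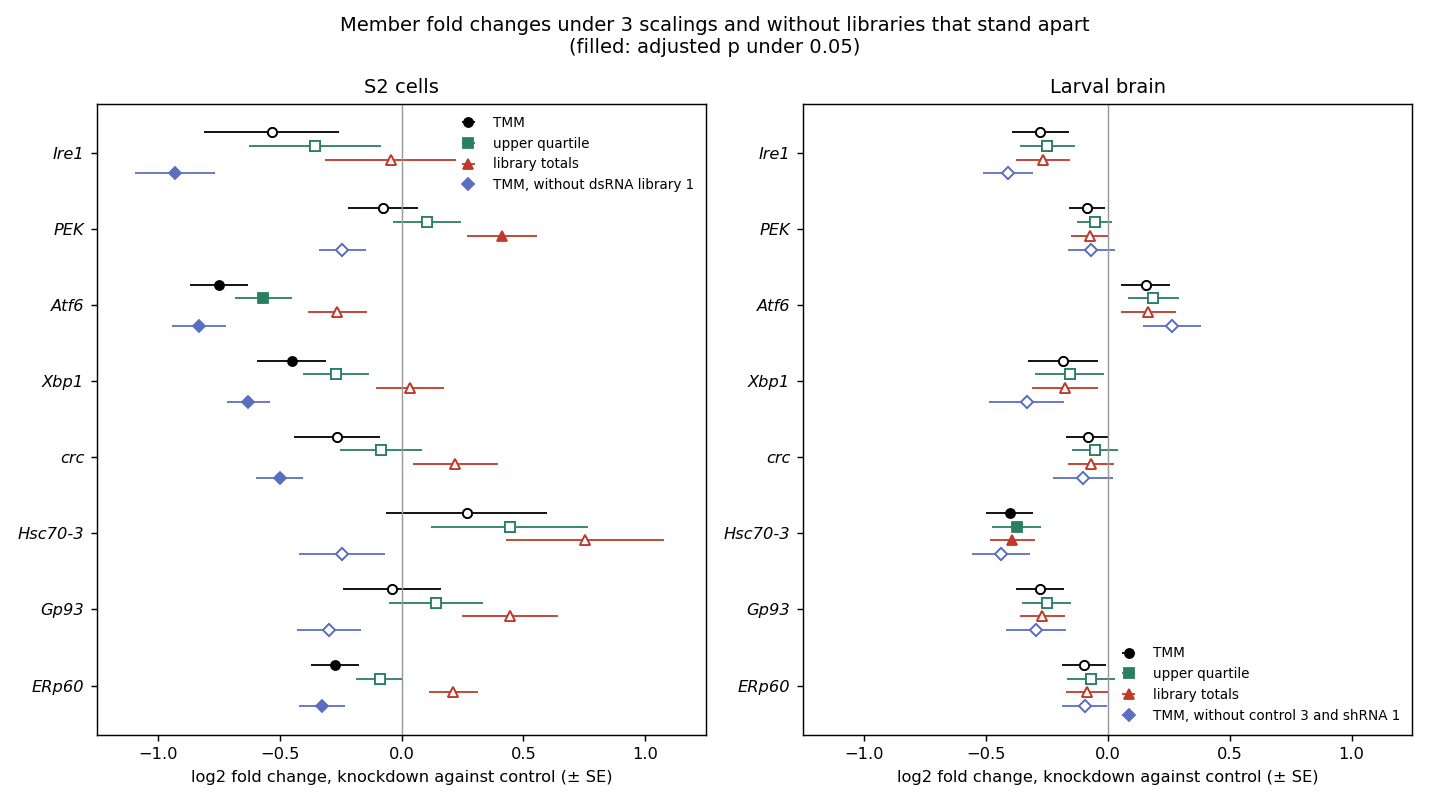
Log2 fold changes with their SE for the 8 genes in S2 cells and larval brain, under TMM, upper quartile and library total scaling and without libraries that stood apart; filled symbols passed an adjusted p of 0.05. In S2 cells each gene shifts to the right from TMM to library totals, by 0.49 for most members, while in brain the 3 scalings lie almost on one another.

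Ratios within a library do not depend on scaling. Relative to the counts of Atf6, 6 of the other 7 genes were higher in every dsRNA library than in every S2 control. PEK went from 2.24 to 2.49 counts per count of Atf6 in controls to 3.35 to 4.12 with dsRNA. ERp60 went from 17.3 to 20.4 in controls to 24.6 to 29.2, and Xbp1 from 16.3 to 16.6 in controls to 17.98 to 22.5. The ratio of Hsc70-3 was 19.2 to 29.2 in controls and 30.8 to 66.2 with dsRNA. For crc it was 4.05 to 4.50 against 5.03 to 7.10, and for Gp93 11.4 to 15.8 against 17.5 to 26.9. Ire1 was the exception, with 2.10 to 3.01 in controls and 2.34 to 3.99 with dsRNA. All 7 ratios share Atf6 as their denominator, so they show unequal change and do not say which gene moved. Atf6 had the largest fall of the 8 genes in these same libraries (-0.75 with TMM), so higher ratios to it are no separate support.

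**Figure D4:**
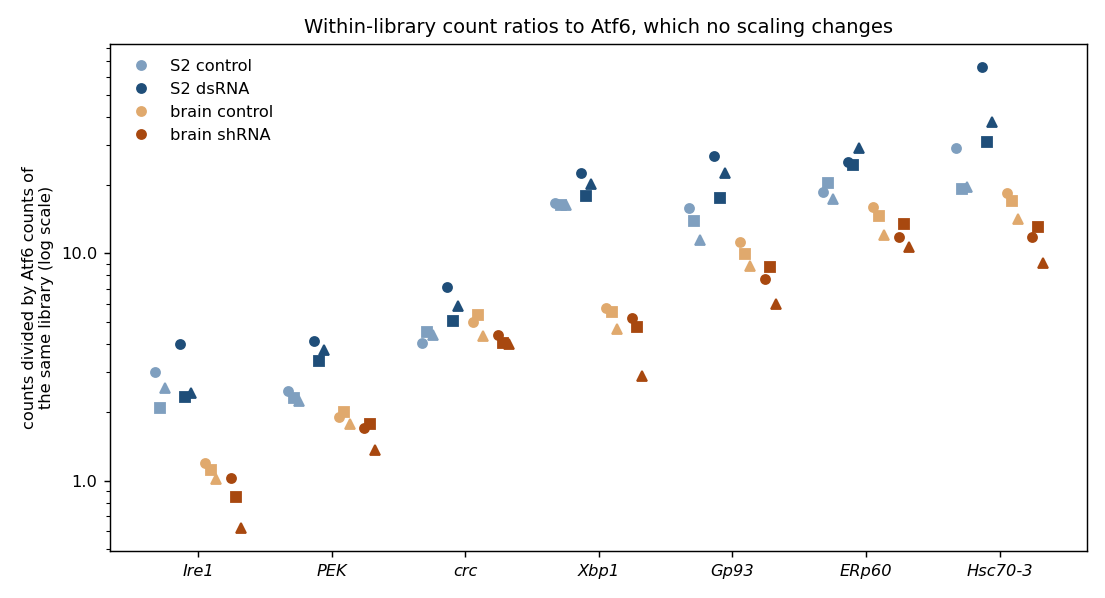
Counts of 7 genes divided by the counts of Atf6 in the same library, on a log axis, for the 4 groups; marker shape gives the library number. In S2 cells the dsRNA libraries lie above the controls for 6 genes, while in brain Hsc70-3 and Gp93 lie lower in every shRNA library than in every control.

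In larval brain, Hsc70-3 was the one member past the threshold with Atx2 shRNA, and it was lower. That is 1 of 8 members, where 23% of the 10438 genes tested were called, 11.5% lower and 11.5% higher. Groups did not overlap for Hsc70-3, Gp93 and Ire1, all lower, against 44.5% of all genes, 22.5% lower and 22% higher. The median log2 fold change was -0.14 for the members and 0.01 for all genes, and scaling moved the median of all genes by at most 0.03. Markers of cell types moved with the groups in brain. Of the 5 neuronal markers, elav (458 to 566 CPM in controls, 315 to 331 CPM with shRNA) and fne (464 to 558 against 272 to 314 CPM) were lower in every shRNA library. In contrast, nSyb (249 to 338 against 354 to 421 CPM) and Syt1 (207 to 269 against 309 to 357 CPM) were higher in every shRNA library, and brp overlapped. Both glial markers, repo and moody, were higher in every shRNA library, summing to 123 to 127 CPM in controls and 156 to 200 CPM with shRNA. The 5 hemocyte markers summed to at most 195 CPM in a control brain library and 272 to 419 CPM with shRNA, with Hml and Pxn higher in every shRNA library and srp, eater and NimC1 overlapping. The part of these markers in the brain results was not tested.

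Hsc70-3 measured 1343, 1243 and 1163 CPM in control brains and 920, 1050 and 868 CPM with shRNA. Every shRNA library was below every control. The log2 fold change was -0.40 ± 0.10 (SE, n = 3 per group, adjusted p = 0.0296), from 1250 ± 90.4 to 946 ± 94.1 CPM (SD). It passed in 8 of 15 alternatives, among them each scaling, both filters and DESeq2. In the fit of 12 libraries it did not pass, and the highest adjusted p of any alternative was 0.408. It missed the threshold without control library 1 (-0.35, adjusted p = 0.0849), control library 2 (-0.39, adjusted p = 0.102), shRNA library 1 (-0.38, adjusted p = 0.0819) or shRNA library 3 (-0.34, adjusted p = 0.0551). Leaving out both control library 3, with its salivary gland transcripts, and shRNA library 1, with high levels of some gut and fat body markers, gave -0.44 (adjusted p = 0.0726).

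The other lumenal proteins were lower or level. Gp93, the ER form of Hsp90, was at 815, 732 and 721 CPM in control brains and at 602, 695 and 571 CPM with shRNA. The groups were apart but by a small gap, and the log2 fold change of -0.28 ± 0.10 did not pass in edgeR (adjusted p = 0.0827). DESeq2 gave the same fold change with an adjusted p of 0.0233. ERp60 was at 1158, 1067 and 992 CPM in controls and at 920, 1074 and 1016 CPM with shRNA. These overlapped, at -0.10 ± 0.09 (adjusted p = 0.471).

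Sensors and transcription factors did not pass in brain. Ire1 was at 86.2, 81.8 and 83.3 CPM in controls and at 80.5, 68.0 and 59.1 CPM with shRNA. The groups did not overlap, the log2 fold change was -0.28 ± 0.12 (adjusted p = 0.128), and without shRNA library 1 it was -0.40 ± 0.09 (adjusted p = 0.0453). Atf6 was at 72.5, 73.3 and 82.0 CPM in controls and at 78.2, 80.03 and 95.4 CPM with shRNA. The groups overlapped, with the highest value of each in its library 3, and the log2 fold change was 0.15 ± 0.10 (adjusted p = 0.305). Xbp1 was at 417, 405 and 381 CPM in controls and at 405, 378 and 277 CPM with shRNA. Only shRNA library 3 lay well below the controls, and the log2 fold change was -0.18 ± 0.14 (adjusted p = 0.390). PEK, at -0.08 ± 0.07 (adjusted p = 0.440), and crc, at -0.08 ± 0.09 (adjusted p = 0.530), were the most level. Together the 8 genes took 0.396 to 0.432% of the counts of control brains and 0.343 to 0.381% with shRNA.

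Within brain libraries the ratio of Hsc70-3 to Atf6 counts was 14.2 to 18.5 in controls and 9.10 to 13.1 with shRNA, without overlap. That of Gp93 was 8.79 to 11.2 against 5.99 to 8.69. The ratios of Xbp1, Ire1, PEK, crc and ERp60 to Atf6 overlapped between the brain groups. Atf6 was the only member with a positive log2 fold change in brain (0.15), which adds to the gaps of Hsc70-3 and Gp93.

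The effects in brain and S2 cells were compared directly in the fit of 12 libraries. Atf6 was the 1 member of 8 whose effects differed, where 41.1% of 11176 genes were called, 19.7% with a higher and 21.4% with a lower effect in brain. Its effect in brain exceeded that in S2 cells by 0.91 ± 0.17 on the log2 scale (SE, 4 groups of 3, adjusted p = 0.00131). The difference passed in 19 of 20 alternatives and missed under library totals (0.43, adjusted p = 0.0546). For Hsc70-3 the brain effect was lower by -0.66 ± 0.42 (adjusted p = 0.235), so with TMM the call in brain and its absence in S2 cells do not show that the systems differ. The differences of the other 6 genes lay between -0.23 and 0.27, with adjusted p from 0.336 to 1.00. Under library totals 3 other members passed with a lower effect in brain, namely PEK (-0.48, adjusted p = 0.0262), Hsc70-3 (-1.14, adjusted p = 0.0302) and Gp93 (-0.71, adjusted p = 0.0292). With that scaling the median log2 fold change of all genes was 0.526 in S2 cells and 0.025 in brain. Without dsRNA library 1, Ire1 (0.68, adjusted p = 0.0381) and crc (0.43, adjusted p = 0.0136) passed beside Atf6. The shares of all genes called for the difference in these settings are not given here, so the calls cannot be set against a background.

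The members were set in the context of 92 genes of the ER and the stress response in 8 lists by role, of which 84 are not members. In S2 cells 82 of these 84 were tested, and with TMM 40 were lower (48.8%, against 26.6% over all genes), 3 were higher (3.66%, against 28.5%) and 39 did not pass. Their median log2 fold change was -0.33, against 0.04 for all genes. With upper quartile scaling 25 were lower and 14 higher, against 20.6% lower and 37.6% higher over all genes. With library totals 13 were lower and 30 higher, with a median of 0.16 against 0.53 for all genes. The shares over all genes were then 14.6% lower, near that of these genes, and 54.2% higher. Without dsRNA library 1, TMM gave 51 lower and 5 higher, against 28.9% and 29.8% over all genes. The hemocyte markers were lower in the same libraries, and their part in these counts was not tested. Counts of a single list include the members on it.

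**Figure D5:**
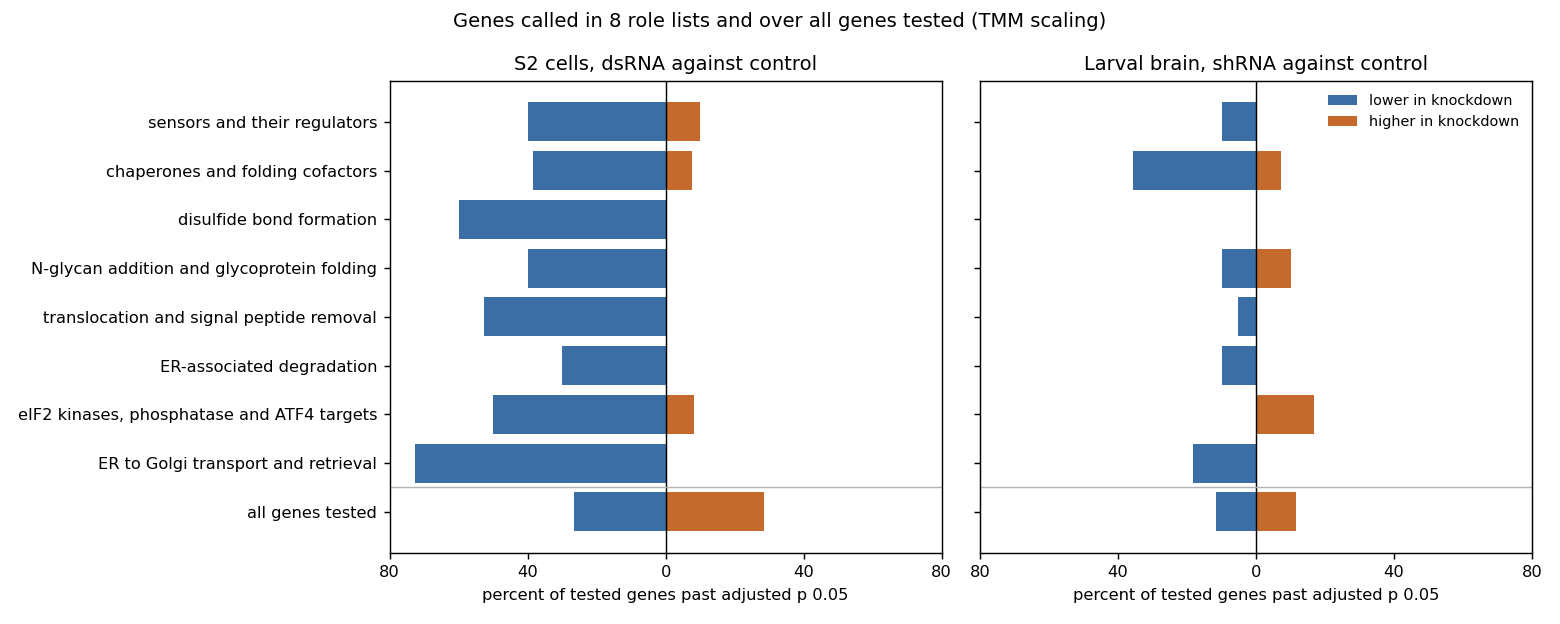
Percent of the tested genes of each role list called lower (to the left) or higher (to the right) with knockdown, in S2 cells and larval brain with TMM scaling, members included, beside the percent over all genes tested. In S2 cells the bars to the left reach 72.7% for ER to Golgi transport, against 26.6% over all genes.

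ER to Golgi transport held the greatest share of lower genes in S2 cells, 8 of 11, with a median log2 fold change of -0.72. With TMM this was 72.7%, against 26.6% over all genes. Sec31, of the outer coat of vesicles leaving the ER, was at 345 to 360 CPM in controls and 127 to 166 CPM with dsRNA (-1.29 ± 0.13, adjusted p = 0.000124). KdelR, the receptor that returns escaped lumenal proteins to the ER, was at 513 to 527 CPM in controls and 232 to 259 CPM with dsRNA (-1.11 ± 0.10, adjusted p = 8.84e-05). Both fell in all 16 alternatives, library totals included. Under library totals 5 genes of the list were lower and 2 higher, against 14.6% lower and 54.2% higher over all genes.

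Of 10 sensors and regulators, 4 were lower and 1 was higher in S2 cells with TMM. These were 40% and 10%, against 26.6% and 28.5% over all genes. Under library totals 1 was lower and 5 were higher, against 14.6% and 54.2% over all genes. CrebA, a transcription factor of secretory pathway genes, was at 163 to 196 CPM in controls and 53.6 to 56.9 CPM with dsRNA (-1.72 ± 0.11, adjusted p = 2.27e-05), which is a greater change than that of any of the 8 members. RtcB, the RNA ligase that in mammals joins the Xbp1 exons, was higher in dsRNA libraries, at 137 to 160 CPM against 76.9 to 82.8 CPM (0.91 ± 0.10, adjusted p = 0.000261). Both calls held in all 16 alternatives. S2P, the protease that in mammals cleaves Atf6, was at 73.8 to 77.4 CPM in controls and 62.5 to 65.2 CPM with dsRNA. With TMM it was lower by -0.25 ± 0.09 (adjusted p = 0.0472), but under library totals it was higher, by 0.24 (adjusted p = 0.0488). It passed in 6 of 16 alternatives, that one included.

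The folding machinery was mixed. With TMM, 3 of 5 disulfide genes were lower in S2 cells (60%, against 26.6% over all genes). Of 13 chaperones and cofactors tested there 5 were lower (38.5%) and 1 was higher (7.69%, against 28.5% over all genes). The exception was Cnx99A, the calnexin that holds newly made glycoproteins, at 746 to 880 CPM in controls and 1037 to 1394 CPM with dsRNA (0.55 ± 0.13, adjusted p = 0.00921). It missed the threshold only without control library 3 (adjusted p = 0.0537). The ER protein sel fell by 1.24 ± 0.13 and boca, a chaperone of LDL receptor family proteins, fell by 0.53 ± 0.12 with TMM, boca standing at -0.04 (adjusted p = 0.773) with library totals. Among the disulfide genes, prtp fell by 0.59 ± 0.10 and CaBP1 fell by 0.55 ± 0.17 with TMM. Neither passed with library totals, where prtp was at -0.105 and CaBP1 at -0.07. With that scaling 1 gene of the chaperone list was lower and 2 were higher. Of the disulfide genes 0 were lower and 1 was higher, where 14.6% of all genes were lower and 54.2% higher. CaBP1 passed in 10 of 16 alternatives and also missed with upper quartile scaling, with the filter of 5 CPM, and when control library 2, dsRNA library 2 or dsRNA library 3 was left out (adjusted p of 0.0640, 0.0862 and 0.0711).

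Translocation into the ER had 10 of 19 genes lower in S2 cells and none higher with TMM. That was 52.6% lower, against 26.6% lower and 28.5% higher over all genes. Upper quartile scaling gave 4 lower and 2 higher, against 20.6% and 37.6% over all genes. With library totals 2 were lower and 6 higher, against 14.6% and 54.2% over all genes. Sec63, which recruits Hsc70-3 to the translocon, went from 128 to 141 CPM down to 67.1 to 76.0 CPM (-0.90 ± 0.10, adjusted p = 0.000239). SrpRbeta, of the signal recognition particle receptor, fell by 0.88 ± 0.10, and both held in all 16 alternatives. Of 10 genes of N-glycan addition and glycoprotein folding 4 were lower with TMM (40%, against 26.6% over all genes). Among them were Stt3A, a catalytic subunit of oligosaccharyltransferase (-0.65 ± 0.12), and GCS2beta, of glucosidase II (-0.62 ± 0.13). Of 10 genes of ER-associated degradation 3 were lower, which is near the 26.6% over all genes, among them the derlin Der-2 (-0.62 ± 0.10) and the ubiquitin ligase sip3, the fly HRD1 (-0.51 ± 0.14). These 4 were lost with library totals, where they stood between -0.16 and -0.02. With that scaling 5 genes of the N-glycan list were higher and 0 lower. In the degradation list 4 were higher and 0 lower, where 54.2% of all genes were higher and 14.6% lower.

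The list of eIF2 subunits, eIF2 kinases, the phosphatase subunit and ATF4 targets had 6 of 12 genes lower and 1 higher in S2 cells. With TMM these were 50% and 8.33%, against 26.6% and 28.5% over all genes. Library totals gave 4 lower and 6 higher, against 14.6% and 54.2% over all genes. Thor, the 4E-BP that binds eIF4E and a target of crc, was at 1916, 1323 and 1739 CPM in controls and at 706, 323 and 152 CPM with dsRNA. The dsRNA libraries were far below the controls and spread among themselves, and the log2 fold change was -2.07 ± 0.49 (adjusted p = 0.00785). AsnS, asparagine synthetase, fell from 95.3 to 160 CPM to 26.3 to 52.9 CPM (-1.63 ± 0.29, adjusted p = 0.00205). Shmt, of serine and glycine metabolism, was higher, at 342 to 372 CPM against 207 to 281 CPM (0.51 ± 0.13, adjusted p = 0.0124). It missed the threshold without dsRNA library 2 (adjusted p = 0.0530), whereas Thor and AsnS passed in all 16 alternatives.

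In brain, 10 of the 83 non-member genes tested were lower, 4 were higher and 69 did not pass, with a median of -0.09 against 0.01 for all genes. The lower genes made up 12% of those tested, near the 11.5% over all genes, and the higher genes 4.82%, against 11.5%. Without control library 3 and shRNA library 1 the counts were 4 lower and 1 higher, against 4.96% lower and 6.78% higher over all genes. Leaving out any 1 brain library left at most 4 lower and 2 higher, and without control library 1 or control library 2 at most 1 gene passed. Fewer genes were called over all genes as well in each fit without 1 library. DESeq2 called 19 lower and 3 higher. The share that DESeq2 called over all genes is not given here, so its counts cannot be set against a background.

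In the eIF2 and ATF4 target list 2 of 12 genes were higher in brain (16.7%, near the 11.5% over all genes). None was lower, against 11.5% over all genes. The phosphoserine phosphatase aay was at 15.6, 15.9 and 23.6 CPM in control brains and at 51.7, 48.4 and 37.2 CPM with shRNA. All shRNA libraries were above all controls, and the log2 fold change of 1.32 ± 0.21 (adjusted p = 0.0101) passed in 13 of 15 alternatives. It missed without control library 2 (1.24, adjusted p = 0.0535). AsnS was at 50.9, 44.3 and 52.1 CPM in controls and at 82.9, 85.9 and 60.4 CPM with shRNA, also without overlap (0.64 ± 0.15, adjusted p = 0.0256). It passed in 7 of 15 alternatives and in none that left out a brain library other than shRNA library 3.

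These 2 genes went the opposite way in S2 cells. In S2 cells aay fell by 1.495 ± 0.34 (adjusted p = 0.00642), and the difference between brain and S2 effects was 2.83 ± 0.44 for aay (adjusted p = 0.000459) and 2.28 ± 0.39 for AsnS (adjusted p = 0.000827). Of the 12 genes of this list 6 passed that test with TMM, all with a higher effect in brain (50%, against 19.7% over all genes). This was not particular to the list. Among the non-members of all lists, 34.9% had a higher and 6.02% a lower effect in brain, against 19.7% and 21.4% over all genes. In ER to Golgi transport 8 of 11 were higher (72.7%). List counts of that test under other scalings are not given here. PEK and crc, which are on the list of sensors and regulators, did not pass. CrebA was lower in both systems but less so in brain, where it was at 60.1 to 65.7 CPM in controls and 49.8 to 50.6 CPM with shRNA (-0.34 ± 0.06, adjusted p = 0.0159); the difference was 1.39 ± 0.11 (adjusted p = 6.21e-06). Its call in brain held in 11 of 15 alternatives and was lost without control library 1, control library 2 or shRNA library 2 (adjusted p of 0.0573, 0.0765 and 0.0611). The chaperone Cnx99A went the other way, lower in brain (-0.33 ± 0.09, adjusted p = 0.0476) and higher in S2 cells, with a difference of -0.87 (adjusted p = 0.00255). It and aay in S2 cells are named here after their values were seen.

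Among brain chaperones and cofactors 5 of 14 were lower with TMM, Hsc70-3 among them (35.7%, against 11.5% over all genes). Upper quartile scaling left 3 lower, against 9.41% over all genes. Without control library 3 and shRNA library 1 it was 1, against 4.96% over all genes. The largest fall was that of wbl, the fly relative of ERp29, at 55.0, 49.99 and 32.9 CPM in controls and at 9.86, 24.5 and 18.5 CPM with shRNA. The groups were apart, and the log2 fold change was -1.38 ± 0.35 (adjusted p = 0.0338). It passed in 11 of 15 alternatives and missed the threshold without control library 1, control library 2 or shRNA library 3 (adjusted p of 0.104, 0.114 and 0.0679). The co-chaperone shv fell by 0.36 ± 0.10 and passed in 4 of 15 alternatives. Grp170, an exchange factor of Hsc70-3, fell by 0.34 ± 0.09 (adjusted p = 0.0359). Cnx14D, a second calnexin, was higher by 2.32 ± 0.60 (adjusted p = 0.0360), but at a mean of only 0.840 CPM with shRNA and 0.164 CPM in controls. Both genes are named after their values were seen. Uggt, the glucosyltransferase that marks unfolded glycoproteins, fell by 0.27 ± 0.08 and GCS2alpha rose by 0.22 ± 0.06, each passing in 3 of 15 alternatives. Npl4 of ER-associated degradation fell by 0.37 ± 0.08, Sec63 fell by 0.29 ± 0.07, Sec31 fell by 0.47 ± 0.10 and Sec16 fell by 0.28 ± 0.07, passing in 9, 6, 10 and 5 of 15 alternatives. None of the 5 disulfide genes passed in brain.

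The gene most like each member was found as the smallest root mean square difference of log2 CPM over 12 libraries, each gene centred within S2 and within brain libraries. For ERp60 it was Srp54k, a subunit of the signal recognition particle, at 0.055, where the median over 11175 genes was 0.417. For Gp93 it was deltaCOP, a coat protein of Golgi vesicles, at 0.102, for crc the tRNA synthetase GluProRS at 0.089, for Xbp1 Tmem63 at 0.111 and for Atf6 CG1902 at 0.090. Ire1 was nearest to Cyp6t3 at 0.111 and Hsc70-3 to CG6051 at 0.138. PEK was nearest, at 0.064, to an identifier without a symbol in the annotation. Between members the smallest difference was 0.131, for PEK and crc, and the highest place in a ranking was that of Gp93, the 7th nearest gene to Hsc70-3 at 0.180. PEK was the 16th nearest gene to Gp93, at 0.136. Xbp1 was the 20th nearest to Ire1, at 0.174, whereas Ire1 was the 177th nearest to Xbp1. Hsc70-3 and Atf6 differed by 0.491. The points share libraries and scaling, and these values are a description.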

How the data were processed

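The authors deposited 1 table of raw read counts per gene for each of 12 samples, made from TruSeq mRNA libraries, per the labels' protocols. The submitters' processing notes name cutadapt 1.13, STAR, HTSeq 0.6.1p1, the build BDGP6 and, without a role, DESeq2. Not given in the sources used here are the strand setting, the annotation release and the counting mode. BDGP6.54, the annotation used for symbols and exon lengths, matched 17599 of 17737 identifiers; the 138 others held 0.995 to 1.39% of the counts and stayed in the tests. Of 96 listed ER genes 92 were matched. Replicates differed by more than sampling noise (chi-square of 22.1 to 154 per degree of freedom), so none was merged. In BDGP6.54 Hsc70-3 lies on X:11801696-11807117 (minus strand), Ire1 on 3R:19853908-19861291 (minus), PEK on 3R:5458563-5464753 (minus), Gp93 on 3R:27948711-27952151 (plus), crc on 2L:21310866-21319527 (plus), Xbp1 on 2R:21143545-21145750 (plus), Atf6 on 2R:5144733-5154756 (plus) and ERp60 on 2R:11887568-11890979 (minus).

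Counts were tested in R 4.3.3 with edgeR 4.0.16 (quasi-likelihood F test) after filterByExpr (minimum count 10) and TMM scaling, within S2 cells, within brains, and over all 12 libraries for the difference between effects and between controls. P-values were two-sided, with Benjamini-Hochberg adjustment across every tested gene and calls under 0.05. The fitting steps were run on simulated counts with a small set of changed genes, as many raised as lowered. The simulation held no broad shift between groups, so it did not test the choice of scaling in S2 cells. Alternatives were RLE, upper quartile and library total scaling, no filter, a filter of 5 CPM in 3 libraries, DESeq2 1.42.0, leaving out each library, a replicate block, S2 libraries thinned to equal totals, the contrast from the fit of 12 libraries, and brains without control 3 and shRNA 1. Library totals without dsRNA library 1, the brain pair left out of the fits of 12 libraries, and list counts for some settings were added after seeing the data. The members, the role lists, the markers and the tests were chosen with earlier results of these data known. Named genes are the 8 members, Atx2, and up to 2 higher and 2 lower called genes per list and system with the largest change, where groups do not overlap and the higher one averages 5 CPM or more. Count precision is not the limit for the members, whose smallest count in a library was 968.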

Additional observations from a re-analysis of the deposited data

Results flagged for a closer look

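The effects of Atx2 knockdown on Atf6 differed between the systems, by 0.91 ± 0.17 on the log2 scale (SE, brain minus S2, adjusted p = 0.00131 by edgeR in 12 libraries). Atf6 was lower in all 3 S2 dsRNA libraries than in all 3 controls, whereas in brain the groups overlapped with the shRNA mean higher. The difference missed the threshold when S2 and brain libraries were scaled by their totals alone (0.43, adjusted p = 0.0546).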

How the results depend on the processing

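The S2 calls depend on scaling and on single libraries. The number of members called in S2 cells was 3 as reported. It was 1 with upper quartile scaling, with library totals and with 5 CPM in 3 libraries. It was 1 to 5 when 1 library was left out. Without dsRNA library 1 it was 5, all lower, where 28.9% of all genes were lower and 29.8% higher. For the other libraries left out and for the filter of 5 CPM the shares over all genes are not given here. Over all genes 20.6% were lower and 37.6% higher with upper quartile scaling, and 14.6% lower and 54.2% higher with library totals. Signs turned for members that had not passed, and for Xbp1 and ERp60. With library totals S2 log2 fold changes were 0.035 for Xbp1, 0.41 for PEK, 0.22 for crc, 0.45 for Gp93 and 0.21 for ERp60, since that scaling moved all genes up by 0.49. Upper quartile scaling gave 0.11 for PEK and 0.14 for Gp93, and the stricter filter 0.034 for Gp93. Leaving out 1 library gave -0.30 to 0.073 for Gp93, -0.24 to 0.01 for PEK and -0.24 to 0.46 for Hsc70-3 in S2 cells. Library totals without dsRNA library 1 gave 0.26 for PEK, 0.20 for Gp93 and 0.17 for ERp60.

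In brain the 1 called member became 2 with DESeq2, 0 in the fit of 12 libraries, 0 without control 3 and shRNA 1, and 0 to 1 when 1 library was left out; without shRNA library 1 it was Ire1, not Hsc70-3. The shares of all genes called with DESeq2 and in the fit of 12 libraries are not given here, so those counts have no background. All genes called in brain, 2397 as reported, were 494 to 2364 when 1 library was left out and 1231 without control 3 and shRNA 1. For the difference between systems, members called went from 1 to 3 with library totals and were 1 to 3 when 1 library was left out. The shares of all genes called for the difference in those fits are not given here. Library totals turned Xbp1 to -0.21, Ire1 to -0.22, crc to -0.29 and ERp60 to -0.30. PEK, at -0.002, turned to 0.013 with RLE, 0.018 without a filter, 0.012 with DESeq2 and 0.024 without control 3 and shRNA 1. Leaving out 1 library gave -0.115 to 0.18 for PEK and -0.37 to 0.041 for Gp93. The causes were not tested.

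Replicate numbers are shared between groups. In S2 cells the deviations of same-numbered libraries had correlations of 0.381, 0.299 and -0.001, against -0.375 to 0.238 between different numbers. In brain they were 0.103, 0.249 and -0.468, against -0.486 to 0.425 between different numbers. These values do not settle whether the numbers pair the samples, least of all in S2 cells, and the main tests did not use the numbers. With the replicate number as a block, Ire1 was also called in S2 cells (-0.59, adjusted p = 0.0175), 40 genes and 0 members were called in brain (Hsc70-3 at -0.40, adjusted p = 0.0758), and 2 members differed between systems, Atf6 and also Hsc70-3 (-0.58, adjusted p = 0.0467), PEK standing at 0.014. The brain calls of wbl (adjusted p = 0.0863), aay (adjusted p = 0.0621) and CrebA (adjusted p = 0.0844) were among those lost. With the block, the shares of all genes called in S2 cells and between systems are not given here.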
